A study of Mus musculus with 8 samples.

Results

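Creatine kinase and creatine supply genes were followed in fetal hearts of mice with and without *Dio3*, the gene of the type 3 deiodinase that inactivates thyroid hormones. The group was chosen by name and holds 7 of the 26590 gene symbols in the deposited table. The 4 creatine kinases were *Ckm*, *Ckb*, *Ckmt2* and *Ckmt1*, the 2 enzymes of creatine synthesis were *Gatm* and *Gamt*, and the creatine transporter was *Slc6a8*. They filled 14 of its 51414 transcript rows, and each gene was read from the row whose level, averaged over the genotypes, was highest.

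RNA from whole hearts was sequenced in 4 *Dio3*+/+ fetuses (labelled Wild type) and 4 *Dio3*-/- fetuses (labelled KO). All 8 fetuses were on the C57BL/6J background and titled E13.5 (embryonic day). In *Dio3*-/- mice the gene is inactivated in every tissue from conception, so a heart effect cannot be told apart from an effect of the rest of the fetus. The age field of the labels reads E18.5 for 2 of the 4 *Dio3*-/- hearts and E13.5 for the other 6, and the study's own text gives the sequenced hearts as E13.5 in some places and E14.5 in others. The table gives only the mean and the coefficient of variation (CV, the SD divided by the mean) of each genotype, so these 2 hearts could not be set apart and age cannot be told apart from genotype in the *Dio3*-/- means. Levels were read as RPKM, reads scaled for transcript length and library size, a scale on which genes can be compared with each other. The study's methods give the aligned reads of its libraries as a range and an average, not heart by heart, and the table holds no counts, so no counting error is given for these values.

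Creatine kinase moves a phosphate group between ATP and creatine. Phosphocreatine stores energy and carries it from mitochondria to the places where ATP is used, such as myofibrils and ion pumps, and heart and skeletal muscle are among its best known users. *Ckm* encodes the muscle subunit and *Ckb* the brain subunit of the cytosolic dimers, while *Ckmt2* encodes the sarcomeric and *Ckmt1* the ubiquitous mitochondrial enzyme. *Gatm* makes guanidinoacetate from arginine and glycine, *Gamt* methylates it to creatine, and *Slc6a8* brings creatine into cells from the blood. Developing heart uses *Ckb* early, and *Ckm* and *Ckmt2* become more abundant as cardiac muscle matures.

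The sequences just before the starts of 3 kinase genes are shown because *Ckm* and *Ckb* carried nearly all kinase RNA in these hearts and *Ckmt2* carried little. Each runs 250 bases, 5′ to 3′ on the gene's strand, from RefSeq on build GRCm38.p6, whose coordinates are given; the authors' own build is not given in the sources used here. Capitals mark matches to the E-box letters CANNTG.
*Ckm*, chr7:19410844-19411093, plus strand: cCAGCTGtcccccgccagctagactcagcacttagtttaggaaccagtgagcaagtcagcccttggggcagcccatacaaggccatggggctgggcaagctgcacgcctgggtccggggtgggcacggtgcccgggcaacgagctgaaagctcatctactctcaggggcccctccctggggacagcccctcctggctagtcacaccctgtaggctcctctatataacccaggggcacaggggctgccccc
*Ckb*, chr12:111672339-111672588, minus strand: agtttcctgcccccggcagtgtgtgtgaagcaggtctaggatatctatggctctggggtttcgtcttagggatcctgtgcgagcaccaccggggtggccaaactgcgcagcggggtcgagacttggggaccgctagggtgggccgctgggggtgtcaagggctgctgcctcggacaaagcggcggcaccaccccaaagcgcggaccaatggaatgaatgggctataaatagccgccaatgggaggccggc
*Ckmt2*, chr13:91876886-91877135, minus strand: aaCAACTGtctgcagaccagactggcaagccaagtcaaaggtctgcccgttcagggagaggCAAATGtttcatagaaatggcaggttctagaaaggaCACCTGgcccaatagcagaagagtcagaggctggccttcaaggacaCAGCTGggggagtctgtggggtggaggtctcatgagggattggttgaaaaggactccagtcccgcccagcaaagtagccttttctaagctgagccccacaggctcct
The *Ckm* window held 1 E-box match, at position −249 from the annotated start, and a TATA box match (letters TATAA) at −29. The *Ckb* window held no E-box match, but had a TATA box match at −28 and CAAT box matches (letters CCAAT) at −46 and −16. The *Ckmt2* window held 4 E-box matches, at −248, −189, −153 and −107, and 2 CAAT box matches, but no TATA box match.

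The half-site bound by thyroid hormone receptors among others, searched as AGGTCA, matched in none of these 3 windows. It matched once upstream of *Gatm*, at −156, and once in a *Ckmt1* window, at −179. Entries were found for 6 of the 7 genes, not for *Slc6a8*, and the *Gamt* window held none of the 4 motifs. Of 32851 promoters of the same length, 66.2% held an E-box, 14.0% a half-site, 22.8% a TATA box and 33.9% a CAAT box match, all searched on both strands; no matches overlapped in the windows printed. A match describes letters only.

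Of the 7 creatine genes, 6 averaged more than 1 RPKM in 1 genotype or both and were tested, and *Ckmt1* did not reach this level. *Ckb* rose in *Dio3*-/- hearts and was the only creatine gene called at an adjusted p below 0.05 (limma, Benjamini-Hochberg over all 32703 rows tested). Over all 14657 genes tested, 2.29% were called, 1.91% as higher and 0.382% as lower in *Dio3*-/- hearts. At an unadjusted p below 0.05, *Ckm*, *Ckb* and *Slc6a8* were higher, where 15.2% of all genes were and 19.7% passed in either direction. The median log2 fold change of the 6 tested genes was 0.07, beside 0.04 for all genes. Higher and lower means were evenly divided, at 3 genes each, where 63.3% of all genes tested had a higher *Dio3*-/- mean.

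**Figure D1:**
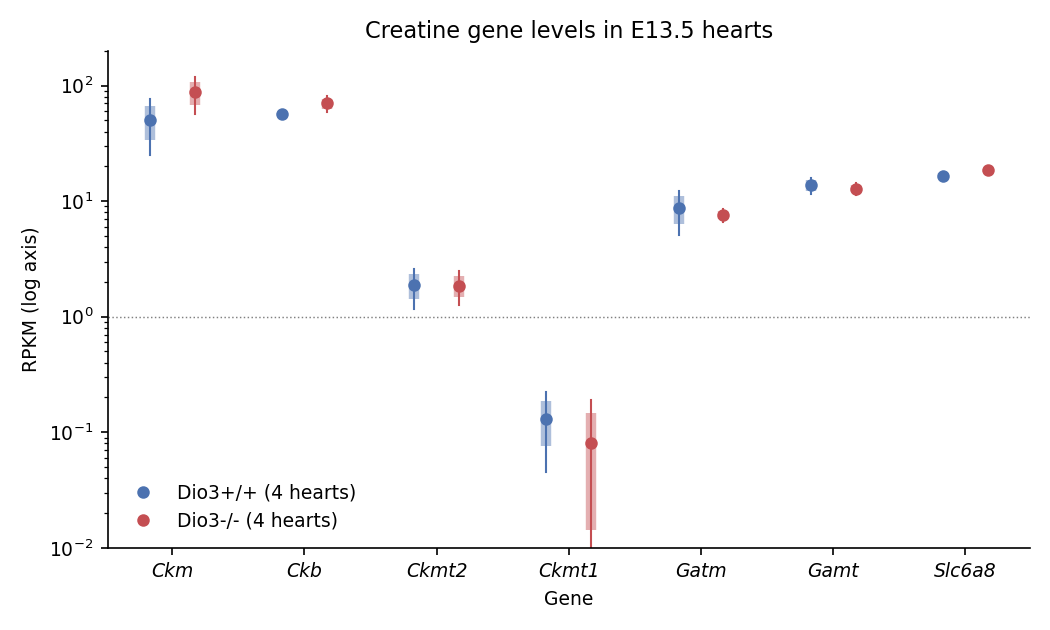
Level of each creatine gene (RPKM, log axis) in Dio3+/+ (blue) and Dio3-/- (red) hearts, 4 per genotype. Points are means, thick bars the mean ± SD, thin lines the range in which any single heart must lie given the mean and the CV (for Ckmt1 in Dio3-/- hearts it reaches 0, off the axis), and the dotted line is 1 RPKM. Ckm and Ckb stand highest in both genotypes and Ckmt1 lies below 1 RPKM.

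*Ckb*, the brain-type subunit, averaged 56.2 RPKM with a CV of 0.02 in *Dio3*+/+ hearts and 70.0 RPKM with a CV of 0.10 in *Dio3*-/- hearts. With 4 hearts, no value can lie more than 1.5 SD from its mean, so the *Dio3*+/+ hearts all lay between 54.1 and 58.3 RPKM and the *Dio3*-/- hearts between 59.0 and 81.0 RPKM. Every *Dio3*-/- heart therefore stood above every *Dio3*+/+ heart. The same bounds require this arrangement, in this direction, for 3.4% of all genes tested. That share is a lower limit, because hearts of other genes may also separate where the bounds leave room for overlap. The *Ckb* mean was 1.25 times as high without *Dio3*, with a log2 fold change of 0.31 ± 0.07 (SE, n = 4 per genotype, 95% interval 0.16 to 0.47; limma adjusted p = 0.0495). Leaving out any 1 heart of each genotype would keep the ratio of means between 1.17 and 1.33. The adjusted p lay just inside the threshold: it was 0.0509 with 1 row per gene, 0.0703 to 0.0917 under 4 other settings, and 0.247 where each row kept its own spread in place of the limma estimate. The CV of 0.02 is small for *Dio3*+/+ hearts, where 1.68% of the 2083 genes within 2-fold of the level of *Ckb* had a lower one and the median was 0.07.

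*Ckm*, the muscle-type subunit, had the largest difference between means of the 7 genes and also the widest spread of the tested ones. It averaged 50.4 RPKM (CV 0.33) in *Dio3*+/+ hearts and 87.8 RPKM (CV 0.23) in *Dio3*-/- hearts. Single hearts must lie between 25.1 and 75.7 RPKM in the former and between 56.8 and 119 RPKM in the latter, so the genotypes may overlap. The ratio of means was 1.74, and the log2 fold change was 0.79 ± 0.23 (SE, n = 4 per genotype, 95% interval 0.28 to 1.31). It did not pass the threshold over all rows (limma adjusted p = 0.102, unadjusted p = 0.00682). The adjusted p ranged from 0.0787 to 0.255 over 9 alternative settings. Removing any 1 heart of each genotype could bring the ratio of means to 1.32 or to 2.34, but not below 1, as held in this direction for 28.9% of all genes.

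The spread of *Ckm* was unusual for a gene of its level. Its CV was higher than that of 98.6% of the 2368 genes within 2-fold of its level in *Dio3*+/+ hearts, whose median was 0.07, and of 98.7% of 1270 such genes in *Dio3*-/- hearts, whose median was 0.05. The 9 cardiomyocyte markers had CVs of 0.12 to 0.18 in *Dio3*+/+ and 0.06 to 0.10 in *Dio3*-/- hearts. *Ckm* therefore varied more between hearts of 1 genotype than did any of these markers. Its exons overlap the antisense gene A930016O22Rik by 451 bases, and whether the counting used strand is not stated in the sources used here.

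**Figure D2:**
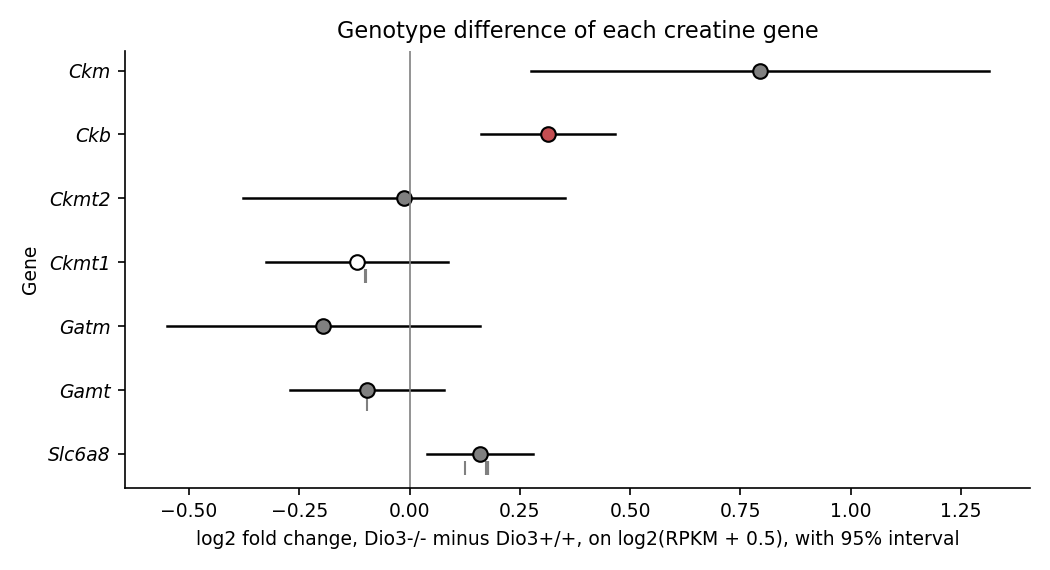
Difference between genotypes of each creatine gene as the log2 fold change, Dio3-/- minus Dio3+/+, on log2(RPKM + 0.5). Points carry 95% intervals; red marks the gene called (adjusted p below 0.05), the white point is Ckmt1 from a fit with no filter on low values, and small ticks are other transcript rows of the same gene. The intervals of Ckm, Ckb and Slc6a8 exclude 0, but only Ckb passes the threshold after adjustment.

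The order of the 2 cytosolic subunits by their means differed between genotypes, within their spread. *Ckb* was first and *Ckm* second in *Dio3*+/+ hearts, and *Ckm* was first in *Dio3*-/- hearts, but in both genotypes their means ± SD overlapped. *Ckm* made up 47.3% of the summed *Ckm* and *Ckb* means in *Dio3*+/+ hearts and 55.6% in *Dio3*-/- hearts. Summed over the 4 kinases, the means came to 108.6 RPKM with *Dio3* and to 159.7 RPKM without it, 1.47 times as high. The log2 fold change of *Ckm* exceeded that of *Ckb* by 0.48. The SE of this excess must lie between 0.16 and 0.30, depending on how the genes varied together across hearts, so it was left without a test.

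*Ckmt2*, the mitochondrial kinase of the sarcomere, was measured at a low level that hardly differed between means. It averaged 1.88 RPKM (CV 0.25) in *Dio3*+/+ hearts and 1.86 RPKM (CV 0.21) in *Dio3*-/- hearts. Single hearts must lie between 1.16 and 2.61 RPKM and between 1.26 and 2.47 RPKM respectively. The log2 fold change was −0.01 ± 0.16 (SE, n = 4 per genotype, limma adjusted p = 0.98). Its 95% interval of −0.38 to 0.35 leaves room for changes of that size in either direction. The exons of *Ckmt2* share 84 bases with an antisense gene, 1700119I11Rik.

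*Ckmt1*, the ubiquitous mitochondrial kinase, averaged 0.13 RPKM (CV 0.42) in *Dio3*+/+ hearts and 0.08 RPKM (CV 0.82) in *Dio3*-/- hearts. Its 3 rows spanned 0.09 to 0.13 RPKM and 0.05 to 0.08 RPKM, and none reached the level required for the test. With no filter, the log2 fold change was −0.12 ± 0.09 (SE, n = 4 per genotype, limma adjusted p = 0.604 in that fit). In the *Dio3*-/- hearts the highest heart must hold at least 37.5% of the summed level. The mitochondrial pair together made up 1.85% of the summed kinase means in *Dio3*+/+ and 1.22% in *Dio3*-/- hearts.

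Both enzymes of creatine synthesis had somewhat lower means in *Dio3*-/- hearts, and neither passed the test. *Gatm*, the first enzyme of the pathway, averaged 8.72 RPKM (CV 0.27) in *Dio3*+/+ hearts and 7.55 RPKM (CV 0.08) in *Dio3*-/- hearts, with a log2 fold change of −0.20 ± 0.16 (SE, n = 4 per genotype, 95% interval −0.55 to 0.16, limma adjusted p = 0.558). Single *Dio3*-/- hearts, at 6.58 to 8.52 RPKM, must lie inside the 5.12 to 12.3 RPKM that bound the *Dio3*+/+ hearts. The *Dio3*+/+ CV exceeded that of 94.9% of the 6256 genes within 2-fold of its level. *Gamt*, which methylates guanidinoacetate, averaged 13.7 RPKM (CV 0.10) in *Dio3*+/+ hearts and 12.8 RPKM (CV 0.07) in *Dio3*-/- hearts, with a log2 fold change of −0.10 ± 0.08 (SE, n = 4 per genotype, 95% interval −0.27 to 0.08, limma adjusted p = 0.558). Its second row gave −0.10 as well. For both genes, leaving out 1 heart of each genotype could turn the direction of the difference in means.

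*Slc6a8*, the creatine transporter, averaged 16.4 RPKM (CV 0.06) in *Dio3*+/+ hearts and 18.4 RPKM (CV 0.03) in *Dio3*-/- hearts. Single hearts must lie between 14.8 and 18.0 RPKM and between 17.4 and 19.4 RPKM, so a narrow overlap is possible. The *Dio3*-/- mean was 12.1% higher, and the log2 fold change was 0.16 ± 0.05 (SE, n = 4 per genotype, 95% interval 0.04 to 0.28), and did not pass the threshold (limma adjusted p = 0.144). All 5 transcript rows of the gene had higher *Dio3*-/- means, with log2 fold changes of 0.13 to 0.18 and adjusted p of 0.110 to 0.289; rows of 1 gene share reads and are not separate measurements. *Slc6a8* lies on the X chromosome, and the hearts varied in *Xist*, the RNA of X inactivation, with CVs of 0.99 in *Dio3*+/+ and 0.55 in *Dio3*-/- hearts around means of 35.6 and 40.0 RPKM. The Y-linked gene *Eif2s3y* had CVs of 1.04 and 1.46 around means of 9.38 and 7.29 RPKM. The series text describes the hearts as male, and *Xist* at these means goes against that label for at least some of them. The part of sex in the *Slc6a8* difference was not tested.

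Below the cytosolic kinases the order of levels was the same in both genotypes: *Slc6a8*, *Gamt*, *Gatm*, *Ckmt2* and *Ckmt1*. The means ± SD of neighbours in this order did not overlap, although in *Dio3*+/+ hearts single values of *Slc6a8* and *Gamt*, and of *Gamt* and *Gatm*, could. The transporter stood at 1.88 times the level of *Gatm* in *Dio3*+/+ hearts and at 2.44 times in *Dio3*-/- hearts. On the log2 scale this was a difference of 0.36 between the 2 fold changes, with an SE that must lie between 0.11 and 0.21, and it was not tested.

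**Figure D3:**
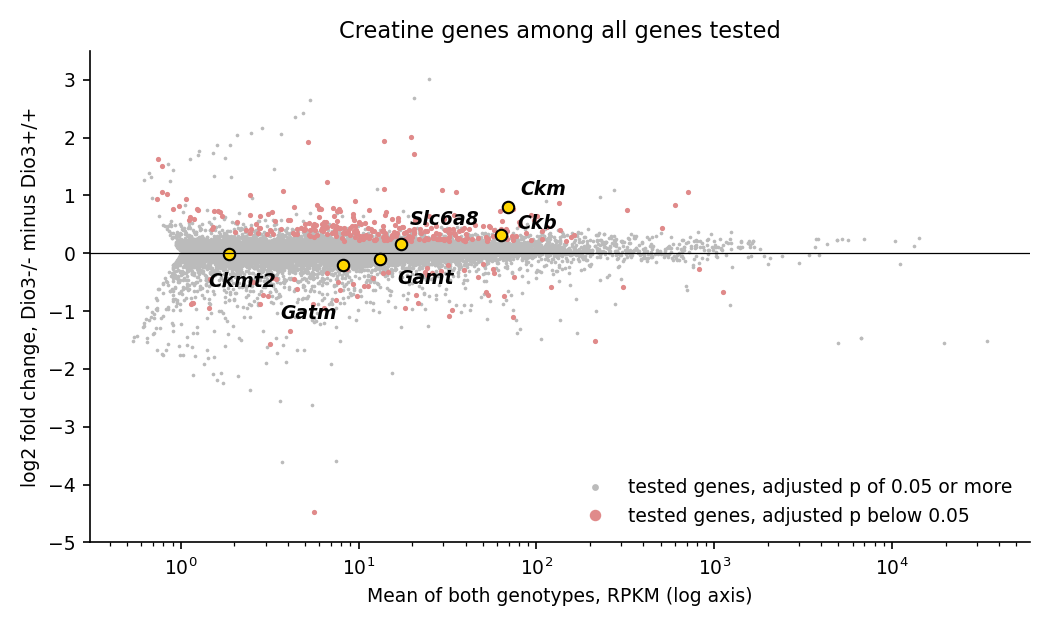
Log2 fold change, Dio3-/- minus Dio3+/+, of all 14657 genes tested against the mean RPKM of both genotypes (log axis). Grey points did not pass an adjusted p of 0.05, red points did, and gold points are the 6 tested creatine genes. Ckm stands furthest from 0 among the gold points and Ckb is the one that was called.

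The genes whose pair of genotype levels lay nearest to that of *Ckb*, over 2 genotype means, were *Prep*, *Chchd3* and *Ak1*. *Prep* averaged 55.8 and 67.8 RPKM (adjusted p = 0.0346, limma), *Chchd3* 56.3 and 67.7 RPKM (adjusted p = 0.0715, limma) and *Ak1*, a cytosolic adenylate kinase, 56.2 and 67.6 RPKM (adjusted p = 0.150, limma). With 2 means each, this likeness says that levels were close and no more.

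Of 16 listed genes that act on phosphate and adenine nucleotides alongside creatine kinase, 15 were tested and 2 were called. All 15 had higher *Dio3*-/- means, as did 63.3% of all genes tested. The untested *Ampd1* had a lower one, at 0.21 RPKM (CV 1.14) in *Dio3*+/+ against 0.05 RPKM (CV 0.36) in *Dio3*-/- hearts. Its highest *Dio3*+/+ heart must hold at least 49.2% of the level summed over the 4 hearts. *Ampd3*, an AMP deaminase, rose from 3.76 to 9.45 RPKM, a log2 fold change of 1.22 ± 0.09 (SE, limma adjusted p = 0.000218). *Slc25a4*, the ADP/ATP carrier of the inner mitochondrial membrane in muscle, rose from 432.3 to 582.9 RPKM, by 0.43 ± 0.08 (SE, limma adjusted p = 0.0330). The list's median was 0.16 beside 0.04 for all genes. An unadjusted p below 0.05 (limma) was held by 11 of the 15, beside 19.7% of all genes tested, of which 2.29% were called.

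Among users of ATP and the M-band proteins to which the muscle enzyme binds, 2 of 11 tested genes were called, both as higher. *Myh6*, the alpha myosin heavy chain, rose from 459.5 to 959.1 RPKM, a log2 fold change of 1.06 ± 0.10 (SE, limma adjusted p = 0.00125). *Atp2a2*, the calcium pump of the cardiac sarcoplasmic reticulum, rose from 433.3 to 771.3 RPKM, by 0.83 ± 0.08 (SE, limma adjusted p = 0.00205). None of the 3 M-band genes was called: *Myom1* averaged 121.6 and 156.7 RPKM (limma adjusted p = 0.0696) and *Myom2* 2.35 and 2.12 RPKM (limma adjusted p = 0.826). *Myom3*, below the level for the test, averaged 0.87 RPKM (CV 1.46) and 0.14 RPKM (CV 0.42). For *Myom3*, the highest *Dio3*+/+ heart must hold at least 64.7% of the level summed over the 4 hearts. The list's median was 0.25, and 7 of the 11 had an unadjusted p below 0.05 (limma), beside 19.7% of all genes. Over all genes tested, 2.29% were called. Higher *Dio3*-/- means were held by 7 of the 11 and lower ones by 4, beside 63.3% higher among all genes tested.

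None of the genes that supply creatine synthesis with amino acids and methyl groups was called among the 14 tested of 18 (limma). An unadjusted p below 0.05 (limma) was held by 5 of the 14, beside 19.7% of all genes tested. The median of this list was 0.09. *Mat2a*, which makes the methyl donor S-adenosylmethionine, averaged 56.0 and 59.7 RPKM, and *Oat*, the ornithine aminotransferase, 52.0 and 56.6 RPKM. The largest difference on the list was a lower mean, that of *Slc6a9*, a glycine transporter, at 10.8 and 5.74 RPKM (log2 fold change −0.86, limma adjusted p = 0.0595). Among membrane transporters related to *Slc6a8* or known to carry creatine or its precursor, 0 of 4 tested were called, with 0 at an unadjusted p below 0.05 (limma). The taurine transporter *Slc6a6* averaged 25.7 and 25.9 RPKM, and *Slc16a12*, a creatine transporter of the monocarboxylate family, 12.1 and 11.5 RPKM.

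Of the factors listed as regulators of creatine kinase or muscle energy genes, 1 of 12 tested was called, beside 2.29% of all genes. It was *Ppargc1b*, a coactivator of mitochondrial genes, which rose from 8.46 to 12.2 RPKM, a log2 fold change of 0.50 ± 0.09 (SE, limma adjusted p = 0.0301). *Thra*, the main thyroid hormone receptor gene of the heart, averaged 46.3 and 46.5 RPKM (limma adjusted p = 0.979). *Thrb* averaged 0.34 RPKM (CV 0.17) in *Dio3*+/+ and 0.53 RPKM (CV 0.05) in *Dio3*-/- hearts, below the level for the test. With no filter, its log2 fold change was 0.29 (limma adjusted p = 0.0852 in that fit). The list's median was 0.09, near that of the creatine genes.

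**Figure D4:**
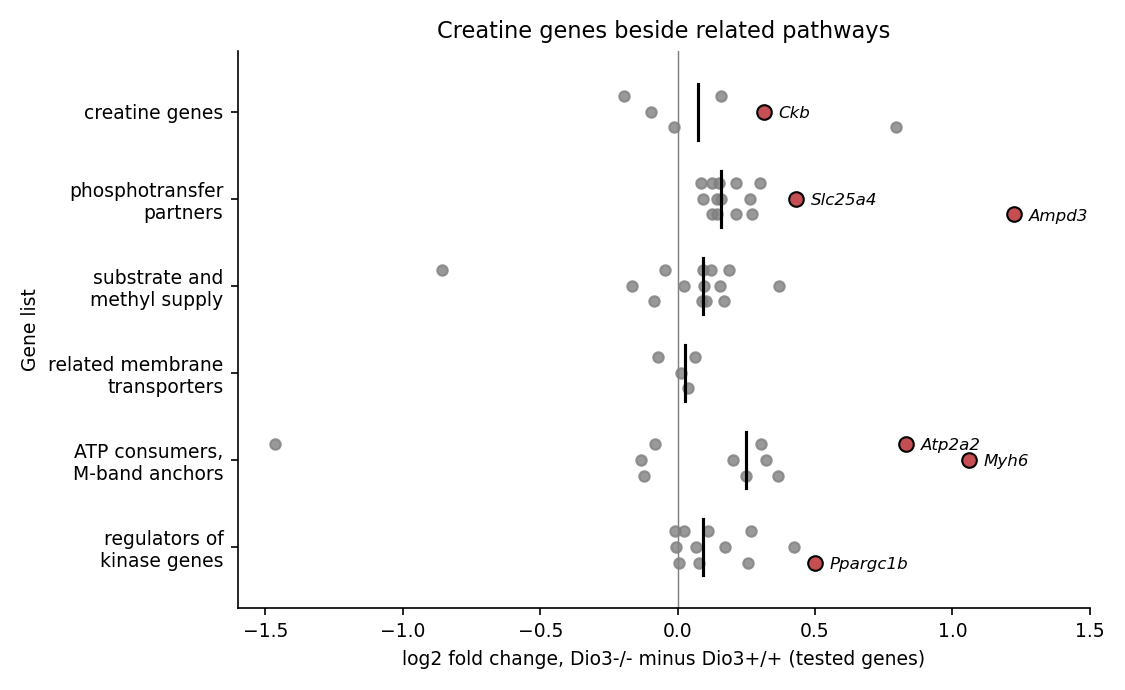
Log2 fold change, Dio3-/- minus Dio3+/+, of every tested gene in the creatine group and 5 related gene lists. Red points were called (adjusted p below 0.05) and are named, grey points were not, and black bars are list medians. The 6 called genes were all higher in Dio3-/- hearts, and the highest median is that of ATP consumers and M-band anchors.

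RNA of other cells moved with genotype or between hearts, and fewer cells of a type and less RNA per cell cannot be told apart in whole hearts. The cardiomyocyte markers were present and all 9 had higher *Dio3*-/- means, beside 63.3% of all genes tested. Of the 9, 1 was called (*Ryr2*), beside 2.29% of all genes. The list's median was 0.25 and its summed level was 7396 against 8733 RPKM. As point estimates, the log2 fold change of *Ckm* exceeded those of all 9, which ran from 0.08 to 0.59. That of *Ckb* exceeded 5 of them and that of *Slc6a8* 3. This ranking holds for the 9 listed markers only, and the 95% interval of *Ckm*, 0.28 to 1.31, covers the highest of them. Among the ATP consumers and M-band anchors, the values of *Myh6* (1.06) and *Atp2a2* (0.83) lay above that of *Ckm* (0.79). Those of *Myh7* (−0.08) and *Myom1* (0.36) lay below it. Apart from *Myh7*, these values also lie inside the *Ckm* interval. The part of the share of cardiomyocytes in the *Ckm*, *Ckb* and *Slc6a8* differences was not tested.

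Skeletal muscle also uses *Ckm*, and its markers were present in the *Dio3*+/+ samples. All 11 were in the table, 7 were tested and 0 called (limma). An unadjusted p below 0.05 (limma) was held by 3 of the 7, beside 19.7% of all genes. Of the 7 tested, 6 had lower *Dio3*-/- means. The summed level of the 11 was 42.4 RPKM with *Dio3* and 12.3 RPKM without it. Of these sums, 30.1 and 2.53 RPKM came from the 7 markers with a *Dio3*+/+ CV above 1.5. The part of skeletal muscle in the *Ckm* difference was not tested. For the 7 markers with a *Dio3*+/+ CV above 1.5, the highest heart must hold at least 69.2% to 80.2% of the summed level, as for *Myh3* at a mean of 14.2 RPKM and *Myog* at 9.78 RPKM. A higher spread in *Dio3*+/+ hearts was common, with a median CV over all rows tested of 0.09, against 0.06 in *Dio3*-/- hearts. The spread was instead higher in *Dio3*-/- hearts for all 6 tested erythroid markers, 5 of the 9 hepatocyte markers and *Ckb*. Of the 6 fibroblast and epicardial markers, 5 varied more in *Dio3*+/+ hearts, from *Col1a1* (CV 0.42 against 0.01) to *Dcn* (0.09 against 0.07), and *Wt1* varied less (0.04 against 0.11). The heart or hearts behind these values could not be identified from means, and their part in the *Ckm* and *Gatm* spread was not tested.

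**Figure D5:**
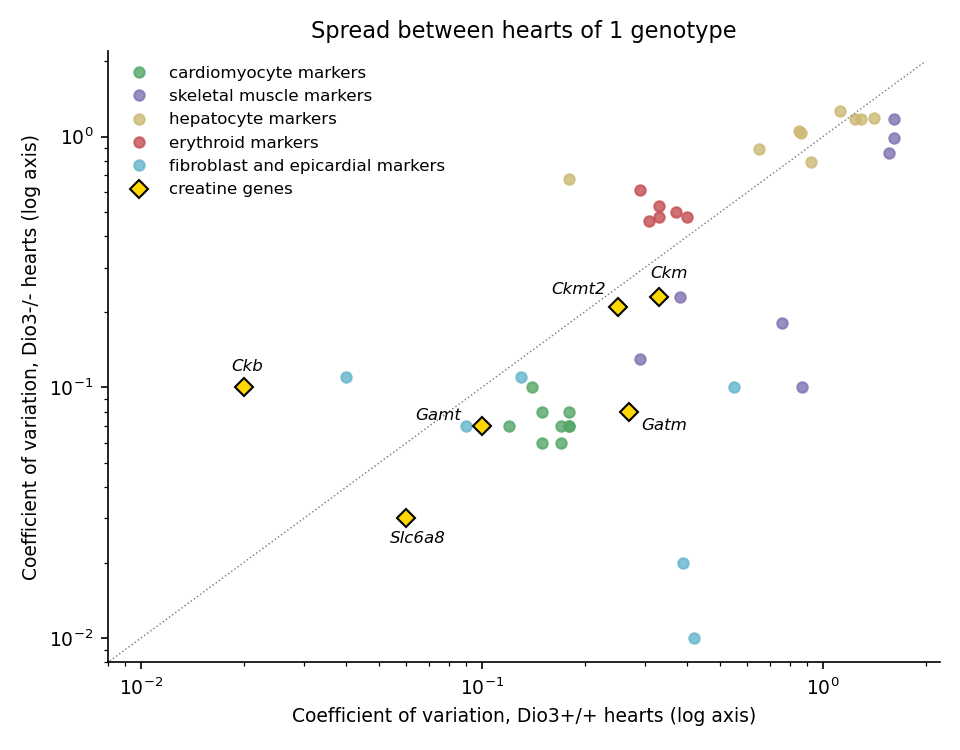
Coefficient of variation (SD divided by the mean over 4 hearts, log axes) in Dio3-/- against Dio3+/+ hearts for the 6 tested creatine genes (gold diamonds) and the tested markers of 5 cell types (circles, by colour); the dotted line marks equal spread. Ckb is the only one of the 6 creatine genes above the line, Ckm and Ckmt2 vary more than the cardiomyocyte markers in both genotypes, and skeletal muscle markers reach a CV of 1.62 in Dio3+/+ hearts.

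Hepatocytes express little cytosolic creatine kinase but make creatine through *Gamt*. All 9 of their markers had higher *Dio3*-/- means, with a summed level of 22.6 against 121.5 RPKM and *Dio3*-/- CVs of 0.68 to 1.26. Of these markers 0 were called (limma). All 9 had an unadjusted p below 0.05 (limma), beside 19.7% of all genes tested, of which 2.29% were called. Erythroid markers went the other way: 6 of 8 were in the table, all 6 had lower *Dio3*-/- means, and 1 was called (*Hbb-bh1*). Their summed level was 29900 against 10220 RPKM, of which *Hbb-y* alone held 29101 and 9909 RPKM. RPKM are shares of a library, and with all genes centred on the median log2 ratio the change of *Ckb* became 0.28 (limma adjusted p = 0.0917). Smooth muscle (0 of 4 tested markers called), endothelial (0 of 5) and fibroblast and epicardial markers (0 of 6) had medians of 0.19, 0.11 and −0.09, and in these 3 lists 2, 2 and 1 had an unadjusted p below 0.05 (limma). Neuron markers, whose cells use *Ckb*, had 1 of 4 called (*Tubb3*, 2.08 against 3.54 RPKM), with 2 higher and 2 lower means and a median of 0.01. Macrophage markers had 1 of 5 called (*Lyz2*, 13.3 against 18.8 RPKM), while the other 4 had lower *Dio3*-/- means and the median was −0.06. Of the kidney and pancreas markers, organs rich in *Gatm*, 3 of 6 were listed at 0 in both genotypes and the 1 tested was not called (limma adjusted p = 0.924). The part of these cells in the creatine gene values was not tested. *Dio3* itself averaged 0.35 RPKM (CV 1.23) in *Dio3*+/+ and 0.13 RPKM (CV 0.76) in *Dio3*-/- hearts, too low for the test.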

How the data were processed

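Hearts of 4 *Dio3*+/+ and 4 *Dio3*-/- fetuses, 1 fetus each, were sequenced by the authors after removal of ribosomal RNA, aligned with Novoalign 2.08 and scaled linearly between samples. The deposited table holds genotype means, taken as RPKM although its header names no unit, and a ratio, the coefficient of variation. Its columns of the authors' own fold changes and tests were not used. Read totals and single hearts are not in this table, so no counting error could be computed.

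The *Dio3*-/- minus *Dio3*+/+ difference was tested on log2(RPKM + 0.5) with limma 3.58.1 (R 4.3.3), squeezing log2 variances derived from the CV, with 6 residual degrees of freedom and a mean-variance trend. Rows averaging more than 1 RPKM in 1 genotype or both were tested, two-sided, with Benjamini-Hochberg adjustment; adjusted p below 0.05 was a call. A fold change on this scale understates that of low genes. The code was tested on simulated data. Bounds on single hearts follow from the mean and CV and allow for rounding; they were added after seeing the data.

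The members and lists were chosen with earlier results of these data known. Named were all members, the called genes of each pathway list (without any, the 2 highest), markers that moved, and the 3 genes nearest to each called member in level. Other genes named (*Ampd1*, *Slc6a9*, *Myom1*, *Myom2*, *Myom3*, *Thra*, *Thrb*, *Col1a1*, *Dcn*, *Wt1*, *Cpa1*, *Lrp2*, *Xist*, *Eif2s3y*) were chosen after their values were seen. Alternatives changed the pseudocount, filter, trend, rows, test and centring.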

Additional observations from a re-analysis of the deposited data

How the results depend on the processing

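None of the 6 tested creatine genes changed direction under any alternative; *Ckmt1* was fitted only with no filter. The number called fell from 1 to 0 with no filter on low values (*Ckb* adjusted p = 0.0762, limma), no mean-variance trend (0.0727), 1 row per gene (0.0509), Welch's test (0.247), centring on the median log2 ratio (0.0917) and, added after seeing the data, each CV raised by its rounding error of 0.005 (0.0703). The share of all genes called, 2.29%, became 0.794% with no filter, 3.76% for means above 5 RPKM, 0.177% by Welch's test, 1.23% centred and 1.28% with the raised CV. The 2 calls among phosphotransfer partners became 1 with no filter, 0 by Welch's test and 1 centred; the 1 call among regulators became 0 in these 3 settings; the 0 calls in substrate supply became 1 for means above 5 RPKM. Welch's test called 0 genes in every list of the report except ATP consumers and M-band anchors, where it called the same number, 2. The cause was not tested. *Ckmt2* has no value under the filter at 5 RPKM. No paired analysis was possible because the columns carry genotype means and no replicate numbers. Leaving out each replicate could not be run for the same reason. The centring shift, the median log2 ratio of all rows, was 0.04. Without counts, the error that depth adds to low values such as those of *Ckmt2* could not be given.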
